A study of Mus musculus with 89 samples.

Results

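The comparison describes the forebrain of Ts66Yah mouse embryos against that of their euploid littermates, labelled EupTs66Yah, at embryonic day 18.5. Its members were the arrays whose genotype label was Ts66Yah or EupTs66Yah, 48 of the 89 arrays of the series, with 24 embryos of each genotype and 1 Clariom S array per embryo. The embryos came from 6 litters, each named by its dam (WT11, WT12, WT13, WT15, WT18 and WT19). Ts66Yah embryos carry a small extra chromosome with a distal part of mouse chromosome 16 (Mmu16). It was derived from the extra chromosome of the older Ts65Dn model by removing a proximal part of mouse chromosome 17 (Mmu17), so that Ts66Yah is disomic for Mmu17. The EupTs66Yah embryos carry no extra chromosome. Both genotypes were kept on a mixed B6 and C3H background, in a colony that was built from imported founder females and enlarged by in vitro fertilization, and none was treated. By label there were 13 female and 11 male Ts66Yah embryos and 11 female and 13 male euploid embryos. Within litters the labelled sexes were not balanced. The 5 euploid embryos of WT12, the 1 of WT11 and the 3 Ts66Yah embryos of WT19 were all male. The 3 Ts66Yah embryos of WT15 were all female. Brain hemispheres were dissected and the tissue is labelled forebrain, so each value is an average over all cells of the tissue.

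Most genes of the distal Mmu16 part have a counterpart on human chromosome 21, the chromosome present in an extra copy in Down syndrome. A gene with an extra copy is often transcribed in proportion to its copies, and genes elsewhere in the genome, which keep their normal copy number, can change as a consequence. The part holds genes of interferon reception (Ifnar1, Ifnar2, Ifngr2), the kinase gene Dyrk1a, the calcineurin inhibitor gene Rcan1, the amyloid precursor gene App and the oligodendrocyte transcription factors Olig1 and Olig2. All of these have been studied in Down syndrome brain.

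The deposited values are log2 signals of 22206 probe sets, of which 19572 carried 1 gene symbol. A difference is given below as the log2 level in Ts66Yah minus that in EupTs66Yah within litters, with the standard error (SE) of the model, and a gene was called changed at a Benjamini-Hochberg adjusted p under 0.1. A few marker genes were read to check the tissue label. Neurod6 and Tbr1, of cortical excitatory neurons, and Gad1, of inhibitory neurons, had euploid mean log2 signals of 11.36, 10.14 and 9.22. The hindbrain genes Hoxa2 and Hoxb2 lay at 6.40 and 6.43, just above the median of all probe sets (6.35).

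Several arrays stood apart. The log2 values of EupTs66Yah replicate 16 had a standard deviation of 1.13, while the other 23 euploid arrays lay between 2.23 and 2.39, so the comparison was made on 47 arrays, and counts of calls with all 48 are given beside the main ones. Another 5 euploid arrays, at 2.23 to 2.27, had a narrower spread than every Ts66Yah array (2.30 to 2.40). The mean of the Mmu16 genes put Ts66Yah replicates 13 and 24 and EupTs66Yah replicate 24 nearer to the other genotype's median. The mean of Uty, Kdm5d and Eif2s3y, which lie on the Y chromosome, went against the labelled sex in 8 of the 47 arrays. All 47 were kept under their labels, and the calls without each of these sets are given where they differ.

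Genes of the triplicated Mmu16 part were higher in Ts66Yah, and those of the Mmu17 part were not. The reference gene order lists 117 measured coding genes from Mrpl39 to Zbtb21, of which 91 had a higher mean in Ts66Yah and 57 were called, all higher. Among all 22206 probe sets 0.703% were called, 0.594% higher and 0.108% lower. The median log2 difference of the 117 genes was 0.32, against 0.0027 over all probe sets. With all 48 arrays 22 of the 117 were called higher, where 0.122% of all probe sets were, and without the 3 arrays nearer to the other genotype 61 were. Those 3 arrays were picked by the mean of these same genes, so the rise to 61 follows in part from the choice.

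The 22 genes called with all 48 arrays were Jam2, Cyyr1, Ltn1, Grik1, Hunk, Cfap298, Il10rb, Ifnar1, Ifngr2, Donson, Cryzl1, Smim11, Rcan1, Clic6, Cbr3, Dop1b, Chaf1b, Vps26c, Erg, Psmg1, Brwd1 and Hmgn1, so the calls of the other 35 of the 57 given below, App, Sod1, Dyrk1a, Ifnar2 and Atp5o among them, rest on leaving that array out. With array spread as a covariate 44 of the 57 were called, and Cyyr1, Adamts1, Adamts5, Rwdd2b, Tiam1, Eva1c, Olig1, Olig2, Morc3, Chaf1b, Kcnj6, Erg and C2cd2 were not. With arrays centred Olig1, Ttc3, Kcnj6 and C2cd2 were not called. Cfap298 and C2cd2 are named here for these counts, after their values were seen.

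A run of 30 genes in the middle of the Mmu16 part, which lies between Cldn8 and Tiam1 and is made up mostly of keratin-associated protein genes of skin and hair, showed no such shift. Their median fold was 0.985, 12 of 30 had a higher mean, and 0 passed limma, where the lowest adjusted p was that of Krtap7-1 (log2 0.51, adjusted p = 0.147). Their median log2 signal was 3.92, below the 6.35 of all probe sets. Of the other 87 genes 79 had a higher mean and 57 were called, and 52 were higher in each of the 6 litters.

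**Figure D1:**
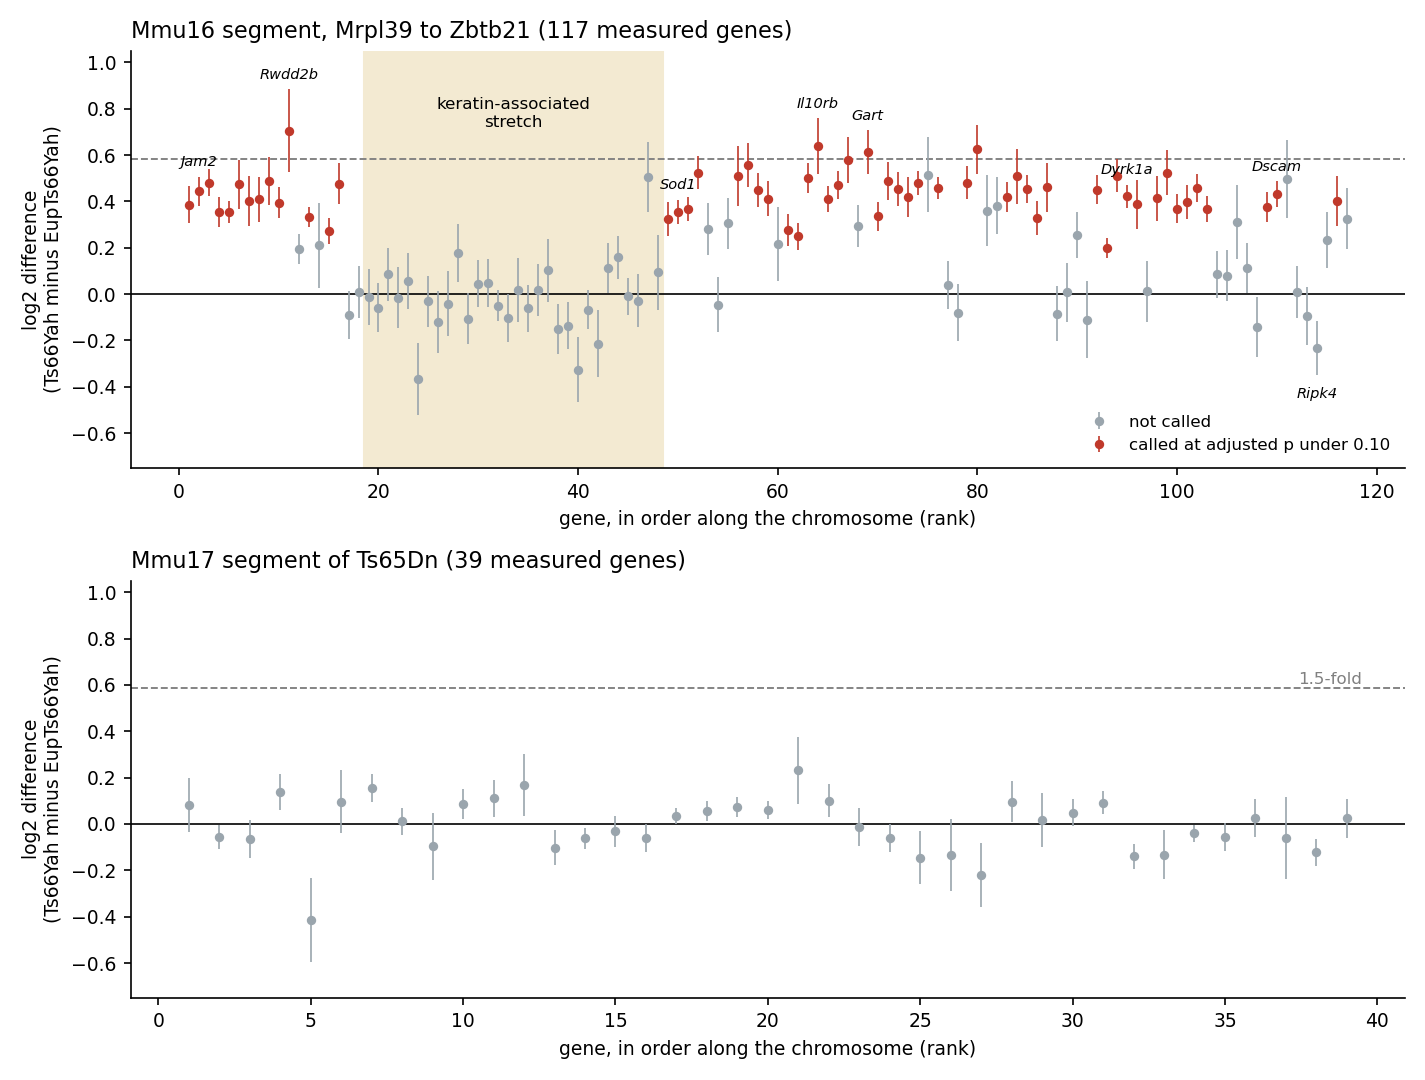
Log2 difference (Ts66Yah minus EupTs66Yah, point) and its SE (bar) for each measured coding gene in its order along the chromosome, 117 genes of Mmu16 above and 39 of Mmu17 below; red marks an adjusted p under 0.1, and the dashed line a 1.5-fold difference. The 57 called Mmu16 genes lie on both sides of the shaded keratin-associated stretch, where none of 30 was called, and no Mmu17 gene was called.

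Signal strength divided the 87 genes. Of the 60 at or above the median signal 60 had a higher mean and 54 were called, with a median fold of 1.33 (quartiles 1.28 and 1.39) against 1.02 over probe sets of that brightness outside both parts. Of the 27 dimmer genes 19 had a higher mean and 3 were called, with a median fold of 1.06. The 3 were Rwdd2b, Eva1c and Cbr3, of which Rwdd2b and Eva1c were singled out after their values were seen. At 1.63-fold (SE of the log2 difference 0.18, adjusted p = 0.0641), Rwdd2b was the largest difference of the 117 genes. The 6 brighter genes that were not called were all above 1, from Usp16, a deubiquitinase gene, at 1.14-fold (adjusted p = 0.209) upward. A copy-proportional change would be 1.5-fold, and most called genes lay below it on this scale. The median fold of the 60 brighter genes depended on the arrays used. It was 1.39 without the 3 arrays nearer to the other genotype, which were picked by the mean of the Mmu16 genes. With all 48 arrays it was 1.445, against 1.09 over probe sets of that brightness outside both parts. The parts of signal compression and of single arrays in the distance from 1.5-fold were not tested.

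**Figure D2:**
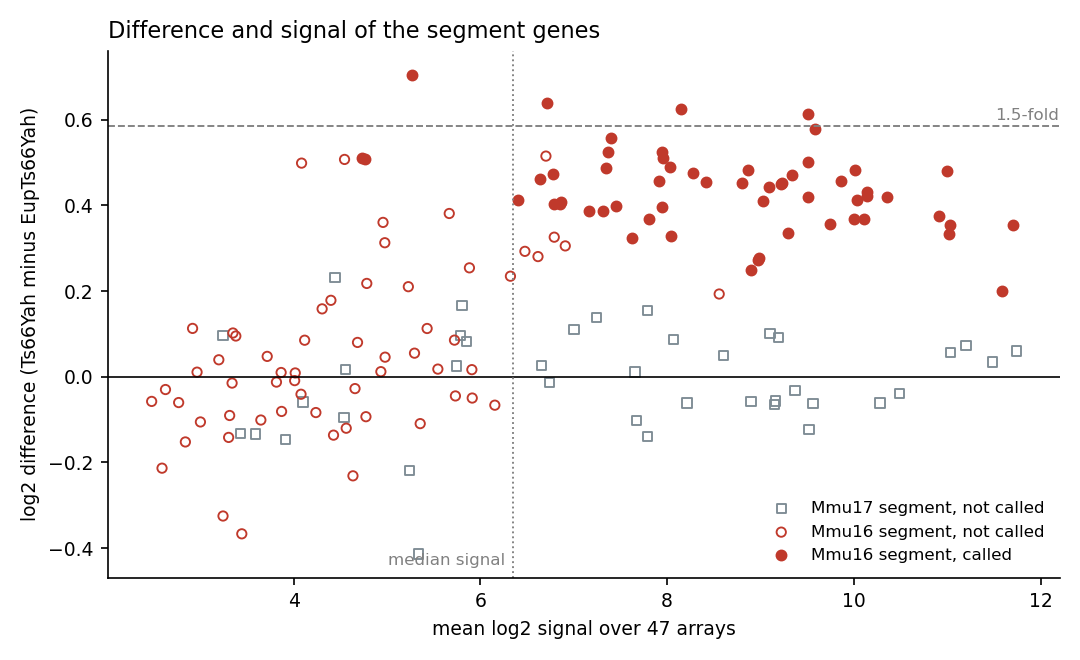
Log2 difference (Ts66Yah minus EupTs66Yah) against the mean log2 signal over 47 arrays, for the Mmu16 genes (circles) and the Mmu17 genes (squares), filled where called. All but 3 of the 57 called Mmu16 genes lie at or above the median signal (dotted line), mostly under the dashed line of a 1.5-fold difference, while most dim genes and the Mmu17 genes scatter around 0.

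The 12 Mmu16 genes of smallest p included a small membrane protein gene, mitochondrial genes, interferon receptors and a kinase. For Smim11, a small integral membrane protein, the lowest, median and highest log2 signals were 7.89, 8.15 and 8.46 in Ts66Yah and 7.35, 7.70 and 7.91 in EupTs66Yah. Of the 24 Ts66Yah embryos 23 lay above every euploid embryo. The difference was 0.46 (SE 0.049, 1.37-fold, adjusted p = 8.71e-08). Atp5o, a subunit of mitochondrial ATP synthase, ranged from 10.82 through a median of 11.26 to 11.44 in Ts66Yah and from 10.53 through 10.76 to 11.43 in EupTs66Yah. The groups overlapped. With the array labelled EupTs66Yah replicate 24 set aside, 23 of 24 Ts66Yah embryos lay above every euploid one. That array was picked by the mean of the Mmu16 genes, so this count follows in part from the choice. The Atp5o difference was 0.48 (SE 0.052, 1.40-fold, adjusted p = 8.71e-08). Its partner subunit gene Atp5j rose 1.40-fold (SE of the log2 difference 0.057, adjusted p = 7.22e-07), and Mrpl39, of the mitochondrial ribosome, rose 1.31-fold (adjusted p = 0.00844). These were the 3 measured genes of the mitochondrial group, and all 3 were called.

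The receptor genes for interferons and interleukin-10 lie side by side in the Mmu16 part, and all 4 were higher in Ts66Yah. Ifnar2, a chain of the type I interferon receptor, had lowest, median and highest signals of 9.08, 9.78 and 10.00 in Ts66Yah and 8.89, 9.24 and 9.62 in EupTs66Yah. Of the 24 Ts66Yah embryos 21 lay above the euploid range. It rose 1.42-fold (log2 0.50, SE 0.066, adjusted p = 3.59e-06). Its partner chain Ifnar1 rose 1.33-fold (adjusted p = 7.38e-06) and Ifngr2, a chain of the interferon-gamma receptor, 1.39-fold (adjusted p = 2.13e-06). Il10rb, a chain shared by receptors of the interleukin-10 family, was dimmer, with 6.07, 7.10 and 7.97 in Ts66Yah and 5.62, 6.36 and 7.07 in EupTs66Yah. The ranges overlapped, with 13 Ts66Yah embryos above the euploid maximum, and the gene rose 1.56-fold (log2 0.64, SE 0.12, adjusted p = 0.00233).

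Downstream of those receptors little was called. Of 29 measured interferon response genes 21 had a higher mean, 8 a lower one, and the median log2 difference was 0.055. Among all probe sets outside both parts 50.8% had a higher mean and 0.34% were called higher. Ifitm2, which encodes an interferon-induced membrane protein that restricts virus entry, was the 1 member called. Its lowest, median and highest signals were 8.07, 8.83 and 9.14 in Ts66Yah and 7.82, 8.47 and 9.08 in EupTs66Yah. The groups overlapped widely, yet 21 of 24 Ts66Yah embryos lay above the euploid median. The difference was 0.30 (SE 0.077, 1.23-fold, adjusted p = 0.067), and it did not pass after centring of the arrays (adjusted p = 0.135) or with their spread as a covariate (adjusted p = 0.112). Isg15, Bst2 and Rsad2, 3 other interferon-induced genes chosen after their values were seen, had differences of 0.31, 0.45 and 0.34 that did not pass (adjusted p = 0.428, 0.391 and 0.469).

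Protein kinases and signalling regulators came next, with 5 of 7 measured genes called. Dyrk1a, a kinase that restrains cell division and phosphorylates many neuronal proteins, had lowest, median and highest signals of 9.82, 10.38 and 10.55 in Ts66Yah and 9.77, 9.94 and 10.31 in EupTs66Yah. Of the Ts66Yah embryos 16 lay above the euploid range. With EupTs66Yah replicate 24 set aside, an array picked by the mean of the Mmu16 genes, 21 did. The gene rose 1.34-fold (log2 0.42, SE 0.051, adjusted p = 1.09e-06). Hunk, a kinase of the AMPK family, rose 1.44-fold (adjusted p = 5.61e-06), Rcan1, which inhibits the phosphatase calcineurin, 1.40-fold (adjusted p = 1.82e-05), Pcp4, a modulator of calmodulin, 1.30-fold (adjusted p = 0.000414), and Tiam1, an activator of the GTPase Rac, 1.25-fold (adjusted p = 0.023). Sh3bgr was at 1.06-fold and Ripk4, a kinase of epithelia, at 0.852-fold, neither called (adjusted p = 0.811 and 0.434). Genes of calcineurin signalling outside the Mmu16 part had a median log2 difference of 0.029 over 12 measured members, with 0 called by limma and 1 at an unadjusted p under 0.05.

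All 4 genes of vesicle recycling and endosomal sorting rose. Vps26c, of the retriever complex that returns membrane proteins from endosomes, rose 1.43-fold (adjusted p = 8.2e-06), Dop1b, a membrane trafficking protein, 1.37-fold (adjusted p = 3.59e-06), Synj1, a phosphatase that uncoats synaptic vesicles, 1.37-fold (adjusted p = 0.000169), and Itsn1, an endocytic scaffold, 1.34-fold (adjusted p = 0.00618).

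Of 11 adhesion, matrix and membrane genes 6 rose. App, whose product is the precursor of amyloid peptides, was among the brightest members. Its lowest, median and highest signals were 11.38, 11.91 and 12.06 in Ts66Yah and 11.32, 11.51 and 11.96 in EupTs66Yah. Of the Ts66Yah embryos 7 lay above the euploid range. With EupTs66Yah replicate 24 set aside, an array picked by the mean of the Mmu16 genes, 21 did. App rose 1.28-fold (log2 0.35, SE 0.049, adjusted p = 8.34e-06), Dscam, a cell surface molecule of neurite self-avoidance, 1.35-fold (adjusted p = 2.58e-06) and Jam2, a junction molecule, 1.36-fold (adjusted p = 1.82e-05). The matrix proteases Adamts5 and Adamts1 rose 1.33-fold and 1.32-fold (adjusted p = 0.0378 and 0.0823) and Cyyr1 1.39-fold (adjusted p = 0.0216), but with array spread as a covariate none of these 3 passed (adjusted p = 0.170, 0.281 and 0.158). The claudin genes Cldn8, Cldn14 and Cldn17 of epithelial junctions, with euploid means of 2.94, 4.30 and 3.37, were at 1.01-fold, 0.944-fold and 0.939-fold, and none was called. Bace2, a protease that cuts App, was at 1.41-fold with a larger error (SE 0.17, adjusted p = 0.212).

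Metabolic enzymes were higher throughout, with 8 of 8 means above the euploid and 6 called. Sod1, the cytosolic superoxide dismutase, had lowest, median and highest signals of 10.65, 11.18 and 11.55 in Ts66Yah and 10.66, 10.83 and 11.24 in EupTs66Yah. The lowest Ts66Yah embryo lay below every euploid one, and 10 lay above all of them. Sod1 rose 1.28-fold (log2 0.36, SE 0.052, adjusted p = 1.95e-05). Gart, an enzyme of purine synthesis, showed the largest difference of the bright metabolic genes at 1.53-fold (log2 0.61, SE 0.095, adjusted p = 7.39e-05). The carbonyl reductases Cbr1 and Cbr3 rose 1.34-fold and 1.42-fold (adjusted p = 7.39e-05 and 0.033), Pigp, of glycolipid anchor synthesis, 1.37-fold (adjusted p = 1.05e-05), and Cryzl1 1.37-fold (adjusted p = 0.000221). Antioxidant enzyme genes elsewhere in the genome had a median log2 difference of 0.059 over 20 measured members, with 0 called by limma and 1 at an unadjusted p under 0.05.

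Genes that act on chromatin, RNA and protein quality rose in most cases. Hmgn1, which binds nucleosomes and loosens chromatin, rose 1.37-fold (adjusted p = 3.59e-06), Brwd1, a bromodomain protein, 1.32-fold (adjusted p = 0.00182), Chaf1b, of the chromatin assembly factor, 1.38-fold (adjusted p = 0.0271) and Morc3 1.26-fold (adjusted p = 0.0256), making 4 of 6 called. In the RNA group 4 of 5 were called, with the splicing cofactor Son at 1.26-fold, Paxbp1 at 1.33-fold, Scaf4 at 1.29-fold and Donson, a replication fork protein kept in this group, at 1.40-fold. Cct8, a chaperonin subunit, rose 1.26-fold (adjusted p = 3.3e-06), Ltn1, a ubiquitin ligase that clears stalled nascent chains, 1.32-fold (adjusted p = 0.000414), Psmg1, a proteasome assembly chaperone, 1.29-fold (adjusted p = 0.000437) and Ttc3, a ubiquitin ligase, 1.15-fold (adjusted p = 0.012), so 4 of 5 were called. Get1, which inserts tail-anchored proteins into the endoplasmic reticulum, rose 1.29-fold (adjusted p = 0.000109).

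Transcription factors of the Mmu16 part were the group with the smallest differences among those with calls, 6 of 11 called and a median log2 difference of 0.28. Olig2, which specifies oligodendrocytes and some motor neurons, had lowest, median and highest signals of 8.52, 9.14 and 9.54 in Ts66Yah and 8.35, 8.84 and 9.15 in EupTs66Yah. Of the Ts66Yah embryos 12 lay above the euploid range. It rose 1.21-fold (log2 0.28, SE 0.069, adjusted p = 0.0519), with 4 of 6 litters higher, and its neighbour Olig1 rose 1.19-fold (SE 0.060, adjusted p = 0.0465). With array spread as a covariate neither passed (adjusted p = 0.161 for Olig1 and 0.220 for Olig2). Ets2, Erg and Gabpa, of the ETS family, rose 1.44-fold, 1.33-fold and 1.28-fold (adjusted p = 0.00201, 0.038 and 0.00148), and Bach1, a repressor of antioxidant genes, 1.21-fold (adjusted p = 0.00746). Runx1 of blood development was at 1.28-fold (adjusted p = 0.344), Zbtb21 at 1.25-fold (adjusted p = 0.306), Prdm15 at 1.18-fold, Sim2 at 1.01-fold and Ripply3 at 0.927-fold, none of them called.

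Of 6 ion channel and receptor genes 3 rose. Clic6, a chloride channel protein of the choroid plexus, rose 1.54-fold (log2 0.62, SE 0.11, adjusted p = 0.000437), Grik1, a kainate receptor subunit, 1.39-fold (adjusted p = 0.00182) and Kcnj6, the potassium channel GIRK2, 1.31-fold (adjusted p = 0.0928). Kcne2, which also marks choroid plexus, was at 1.43-fold (adjusted p = 0.173), while Kcnj15 and Kcne1, with euploid means of 4.97 and 3.86, were at 1.01-fold and 0.945-fold. The other choroid plexus and ependymal markers, with 6 of 11 means higher and a median log2 difference of 0.024, held 0 calls by limma and 0 at an unadjusted p under 0.05. Of the antiviral and protease group 1 coding gene was measured, Tmprss2, at 0.937-fold (adjusted p = 0.806). The antiviral genes Mx1 and Mx2, which the reference does not class as coding, also had probe sets in the Mmu16 part. They were at 1.09-fold and 1.02-fold (adjusted p = 0.707 and 0.970), at euploid means of 3.38 and 4.76.

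In all, 26 of the 117 Mmu16 genes had a lower mean in Ts66Yah, and none of them was called. Of these 18 lay in the keratin-associated stretch, with a lowest fold of 0.775. The other 8 were Cldn17, Mrap, Kcne1, Cldn14, Ripply3, Itgb2l, Tmprss2 and Ripk4, between 0.852-fold and 0.969-fold. All 8 lay below the median signal.

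In each of the 6 litters the mean over the Mmu16 genes was higher in Ts66Yah. The mean log2 signal of the 117 genes ran from 6.40 through a median of 6.66 to 6.72 in Ts66Yah and from 6.29 through 6.40 to 6.69 in EupTs66Yah. With all 47 arrays the difference was 0.28 in WT11, 0.26 in WT12, 0.19 in WT13, 0.29 in WT15, 0.31 in WT18 and 0.12 in WT19. Without those 3 arrays it was 0.24 in WT13 and 0.25 in WT19, and the other litters, which hold none of them, kept their values. Those arrays were picked by this same mean, so the rise in WT13 and WT19 follows from the choice. Litter WT11 has 1 euploid embryo and WT13 has 2, so their values are the least precise. Between 83 (WT18 and WT19) and 96 (WT11) of the 117 genes had a higher mean in Ts66Yah in a litter.

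**Figure D3:**
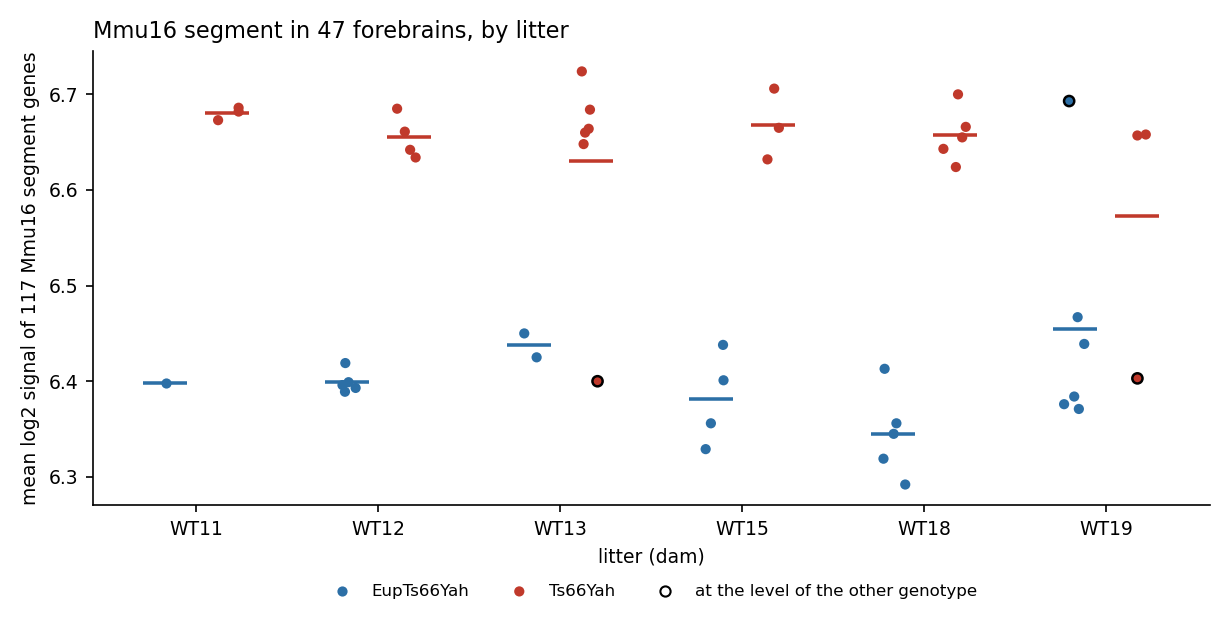
Mean log2 signal of 117 Mmu16 genes in each of 47 forebrains (points) by litter and genotype, with the mean of each litter and genotype as a line; black rims mark the 3 arrays nearer to the median of the other genotype. In WT11, WT12, WT15 and WT18 all Ts66Yah embryos lie above all euploid littermates, and the exceptions sit in WT13 and WT19.

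A test of whether the genotype difference varied among litters called 2 of 22206 probe sets (0.00901%), neither of them in the Mmu16 part, where 6 of 117 genes had an unadjusted p under 0.05. The first was Rnf133, a ubiquitin ligase gene known from testis (adjusted p = 0.0176). Its log2 difference was 0.96 in WT13 and 0.76 in WT18 but -0.54 in WT15 and -0.33 in WT12. The gene was dim, at 3.384 and 3.367 in the 2 euploid embryos of WT13 and 4.025 to 4.643 in the 6 Ts66Yah embryos. These levels lay below the median of all probe sets (6.35). The second was Chrnb3, a subunit of nicotinic acetylcholine receptors (adjusted p = 0.0665), with a difference of -2.16 in WT13 and 0.96 in WT11. In WT13 its level was 6.45 and 5.45 in the 2 euploid embryos and 3.41 to 4.26 in the 6 Ts66Yah embryos. Without WT13 the test called 0 probe sets, and likewise without WT12 or without WT18. Run on the probe sets at or above the median signal, it also called 0.

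The Mmu17 part, which Ts66Yah lacks in extra copy, lay at the euploid level. Of 39 measured genes 20 had a higher and 19 a lower mean, the median fold was 1.01, and 0 were called by limma or by the unpaired t-test of the series, with 4 at an unadjusted p under 0.05 in limma. Pde10a, a phosphodiesterase of striatal neurons, had lowest, median and highest signals of 8.99, 9.53 and 9.75 in Ts66Yah and 9.06, 9.59 and 9.89 in EupTs66Yah. The groups overlapped almost fully, and the fold was 0.918 (SE of the log2 difference 0.060, adjusted p = 0.414). Gtf2h5, a subunit of the repair and transcription factor TFIIH, was at 0.958-fold, the Rac activator Tiam2 at 0.956-fold, Scaf8 at 0.961-fold, the pyruvate carrier gene Mpc1 at 0.973-fold and Tulp4 at 0.978-fold. Above 1 lay Arid1b, a chromatin remodelling subunit, at 1.11-fold (adjusted p = 0.301), the sorting nexin gene Snx9 at 1.08-fold, the membrane linker gene Ezr at 1.07-fold and the dynein light chain gene Dynlt1b at 1.04-fold.

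The same test on the difference between the Ts66Yah effect and the Ts65Dn effect, each against its own euploid littermates, called 29 probe sets (0.131% of those tested). The arrays of the colonies lie at different overall levels, so differences within each colony were compared and not levels, and a scale difference between the colonies was not tested. Of these 21 were Mmu17 genes and 0 were among the 117 Mmu16 genes, of which 3 had an unadjusted p under 0.05. Median folds were 1.25 in Ts66Yah and 1.26 in Ts65Dn for the Mmu16 genes and 1.01 and 1.33 for the Mmu17 genes. Pde10a was higher by 1.40-fold in Ts65Dn, and the effects differed by -0.61 (SE 0.078, adjusted p = 2.63e-07). Gtf2h5 was at 1.41-fold in Ts65Dn and its effects differed by -0.56 (adjusted p = 2.75e-08). Arid1b and Snx9 were at 1.36-fold and 1.31-fold in Ts65Dn, but their effects did not differ past the threshold (adjusted p = 0.407 and 0.706). With all 48 arrays in the Ts66Yah colony 2 Mmu17 genes were called for the difference.

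**Figure D4:**
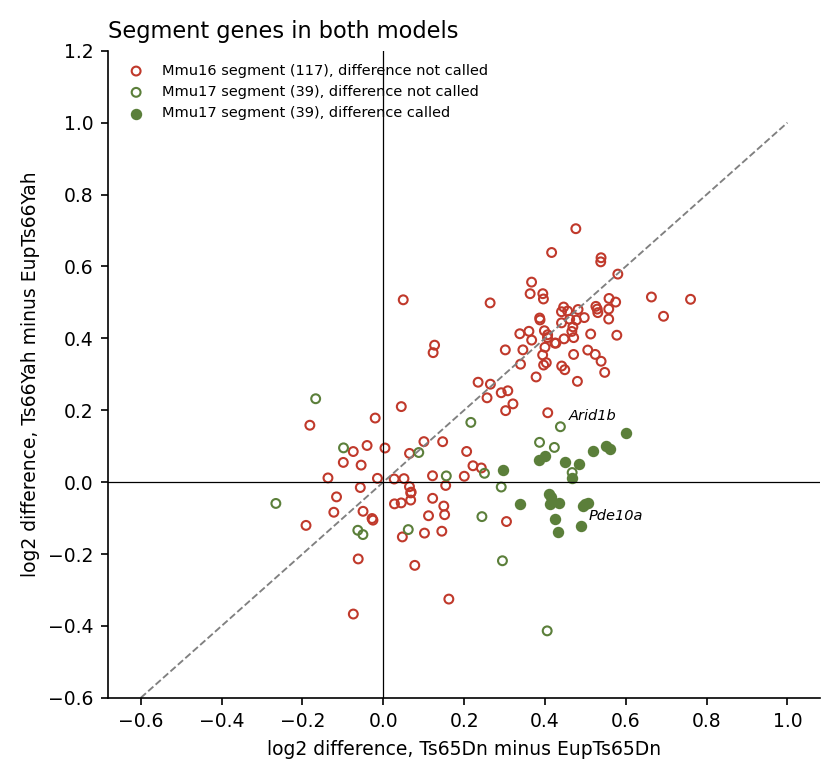
Log2 difference in Ts66Yah (vertical) against that in Ts65Dn (horizontal), each from its own euploid littermates, for 117 Mmu16 genes (red) and 39 Mmu17 genes (green); filled points are called for a difference between the effects and the dashed line marks equal effects. The 21 filled points are Mmu17 genes near 0 in Ts66Yah, and the Mmu16 genes spread along the dashed line.

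Beyond the Mmu16 and Mmu17 parts lay 22044 probe sets, of which 99 were called, 75 higher and 24 lower, and 83 of the 99 carried 1 gene symbol. This split depended on scaling: with each array centred on its median, 32 were called higher and 87 lower (26.9% higher against 75.8%), with quantile normalization 66.7% of the calls were higher, and with array spread as a covariate 53.2%. The euploid arrays had a lower median spread (2.35 against 2.37), and 22 of the 99 remained called with array spread as a covariate. Its part in the other calls was not tested. With all 48 arrays 9 were called, 5 higher and 4 lower, and all 9 were among the 99. With all 48 under array weights 72 were called higher and 36 lower. Without the 3 arrays at the other level 139 were called higher and 54 lower, and 92 of the 99 were among them. Leaving out the 5 further euploid arrays of narrow spread left 31 of the 99. Single litters moved the counts too, from 14 higher and 3 lower without WT12 to 157 higher and 62 lower without WT11.

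Some disomic genes passed in 8 of the settings run. Without the other-level arrays, without the narrow arrays, without the arrays with a sex mismatch, with spread or sex as a covariate, without the litter block, with centring and with quantile normalization, 11 named genes were called each time. They were Copg1, Ltb, Hapln4, Igfbp7, Pdk2, Naxd, Ccnd3, Idh2, Nelfa and Selenov, all higher, and Vmn2r29, which was lower. Ltb and Pdk2 were also called with any single litter left out. With all 48 arrays 3 of the 11 were called, Ltb, Pdk2 and Selenov, and the other 8 were not. For comparison, 42 of the 57 called Mmu16 genes passed those 8 settings, and 36 of them also without any single litter.

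Ltb, which encodes lymphotoxin beta, a cytokine of lymphoid tissue, had lowest, median and highest signals of 4.58, 5.15 and 5.72 in Ts66Yah and 3.98, 4.78 and 5.30 in EupTs66Yah. The ranges overlapped, with 6 Ts66Yah embryos above the euploid maximum and all 6 litters higher. The difference was 0.44 (SE 0.088, 1.36-fold, adjusted p = 0.00477). Pdk2, a kinase that switches off pyruvate dehydrogenase, ran through 7.39, 7.75 and 8.14 in Ts66Yah and 6.64, 7.46 and 7.78 in EupTs66Yah. Of the Ts66Yah embryos 10 lay above the euploid range, and Pdk2 rose 1.25-fold (log2 0.32, SE 0.065, adjusted p = 0.0066). Idh2, the mitochondrial isocitrate dehydrogenase, rose 1.21-fold and Naxd, which repairs damaged NADH, 1.22-fold (adjusted p = 0.00844 and 0.00732).

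Selenov, a selenoprotein gene, had the largest rise among the called named genes outside the Mmu16 and Mmu17 parts. Its lowest, median and highest signals were 5.86, 6.85 and 8.41 in Ts66Yah and 5.36, 6.04 and 7.39 in EupTs66Yah. The ranges overlapped, and 21 of 24 Ts66Yah embryos lay above the euploid median. It rose 1.62-fold (log2 0.69, SE 0.15, adjusted p = 0.0167), with litter differences from 0.16 in WT19 to 1.50 in WT12. Its log2 effect in Ts65Dn was 0.66. The rule-named genes of small p also included Copg1, a coat protein of Golgi vesicles, at 1.18-fold (adjusted p = 0.00199), Ccnd3, cyclin D3, at 1.19-fold (adjusted p = 0.00765), Nelfa, of the negative elongation factor, at 1.23-fold (adjusted p = 0.00963) and Cdkl3, a kinase gene, at 1.15-fold (adjusted p = 0.00844, and 0.137 with arrays centred). Hapln4, a link protein of the perineuronal matrix, rose 1.44-fold (adjusted p = 0.00569) at a low signal. Its euploid mean was 3.945, below the median of all probe sets (6.35). The Hapln4 effects in the models differed by 0.67 (adjusted p = 0.027), and the gene was at -0.14 on the log2 scale in Ts65Dn.

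**Figure D5:**
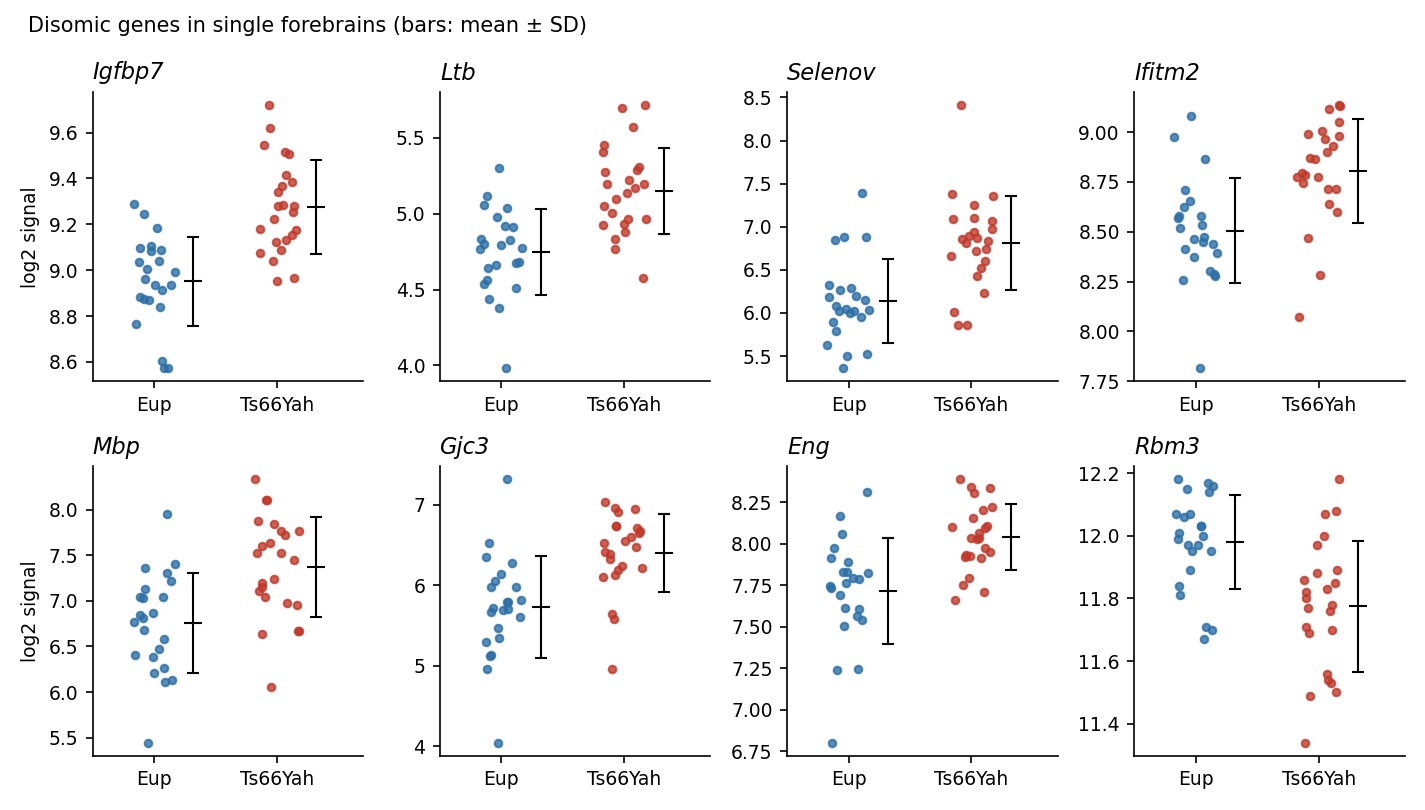
Log2 signal of 8 disomic genes in each of 23 EupTs66Yah (blue) and 24 Ts66Yah (red) forebrains, with the mean and SD of each group as a black bar. All but Rbm3 have a higher mean in Ts66Yah, and the groups overlap for each of the 8 genes.

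Myelin and maturing oligodendrocyte markers, without the triplicated Olig1 and Olig2, held 2 calls among 15 measured genes, and 14 of the 15 had a higher mean. Of all probe sets outside both parts 0.34% were called higher and 50.8% had a higher mean. The median log2 difference of the markers was 0.20, against 0.0027 over all probe sets, and with each array centred 0.16. The mean level of the list ran from 5.13 through 5.57 to 5.86 in Ts66Yah and from 5.13 through 5.31 to 5.72 in EupTs66Yah. In bulk tissue a larger share of such cells and more RNA per cell cannot be told apart. Mbp, myelin basic protein, had lowest, median and highest signals of 6.06, 7.49 and 8.33 in Ts66Yah and 5.45, 6.81 and 7.95 in EupTs66Yah. The ranges overlapped over most of their width, and 5 of 6 litters were higher, from 0.19 in WT19 to 1.22 in WT12, with WT11 at -0.51. Mbp rose 1.60-fold (log2 0.68, SE 0.16, adjusted p = 0.0292), and did not pass once array spread was a covariate (adjusted p = 0.127). Gjc3, a connexin of oligodendrocytes, ran through 4.96, 6.50 and 7.03 in Ts66Yah and 4.05, 5.72 and 7.31 in EupTs66Yah. No Ts66Yah embryo exceeded the euploid maximum, and 21 of 24 exceeded the euploid median. Gjc3 rose 1.51-fold (log2 0.59, SE 0.16, adjusted p = 0.0813), and did not pass with array spread as a covariate or without the narrow arrays (adjusted p = 0.270 and 0.210). Of 8 oligodendrocyte precursor markers 6 had a higher mean, the median was 0.073 and 0 were called by limma, with 2 at an unadjusted p under 0.05. Bcas1 was nearest at 1.16-fold (adjusted p = 0.240).

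The promoters of Gjc3 and Ifitm2 are shown because both are called disomic genes of a list, oligodendrocyte or interferon response genes, whose name ties it to genes of the triplicated part (Olig1 and Olig2, and the interferon receptors). Both run from 250 bases before to 50 after the gene start, in RefSeq build GRCm38.p6. Capitals mark E-boxes (CANNTG, which reads the same on both strands) in the Gjc3 sequence and the interferon-stimulated element GAAANNGAAA (either strand) in that of Ifitm2. The Gjc3 window, chr5:137963049-137963348 on the minus strand, holds 2 E-boxes, and the Ifitm2 window, chr7:140955912-140956211 on the minus strand, holds 1 element. Of 27025 promoters of the same length, 1 per gene symbol, 72.1% held an E-box and 3.49% the interferon element. A match describes the letters alone, and no binding was measured. Mbp, another called gene of the oligodendrocyte list, meets the same description, and its promoter is not shown.
Gjc3: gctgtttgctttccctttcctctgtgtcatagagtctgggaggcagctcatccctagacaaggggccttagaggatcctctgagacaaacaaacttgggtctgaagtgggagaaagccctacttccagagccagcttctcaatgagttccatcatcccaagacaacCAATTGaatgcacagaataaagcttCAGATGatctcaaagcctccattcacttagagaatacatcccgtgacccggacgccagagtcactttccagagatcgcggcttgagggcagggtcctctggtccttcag
Ifitm2: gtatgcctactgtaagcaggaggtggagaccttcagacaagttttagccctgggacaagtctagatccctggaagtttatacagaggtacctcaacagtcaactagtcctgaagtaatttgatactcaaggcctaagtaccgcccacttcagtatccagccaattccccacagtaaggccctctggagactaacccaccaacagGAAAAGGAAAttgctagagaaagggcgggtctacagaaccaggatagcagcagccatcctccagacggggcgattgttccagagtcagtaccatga

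Vessel genes included 2 calls among 19 endothelial markers, of which 16 had a higher mean. Outside both parts 0.34% of probe sets were called higher and 50.8% had a higher mean. For those at or above the median signal the shares were 0.527% and 61.4%. The endothelial list had a median log2 difference of 0.13. This median was 0.086 with arrays centred and 0.052 with array spread as a covariate. Igfbp7, a secreted protein of vessel walls, had lowest, median and highest signals of 8.95, 9.27 and 9.72 in Ts66Yah and 8.57, 8.96 and 9.29 in EupTs66Yah. Of the Ts66Yah embryos 9 lay above the euploid range. Igfbp7 rose 1.22-fold (log2 0.29, SE 0.058, adjusted p = 0.00618) in all 6 litters. Eng, endoglin, a co-receptor of endothelial TGF-beta signalling, rose 1.23-fold (adjusted p = 0.0688), but not with array spread as a covariate (adjusted p = 0.270). The defining endothelial genes Pecam1, Cdh5 and Kdr were at 0.14, 0.13 and 0.068 without passing, and Cldn5 at -0.13. Those 4 were chosen after their values were seen. Among pericyte and meningeal markers 16 of 18 means were higher, the median was 0.11 (0.069 with arrays centred, 0.034 with array spread as a covariate) and 0 were called by limma. An unadjusted p under 0.05 was found for 7 of the 18, against 11.4% of all probe sets outside. Aldh1a2 was nearest at 1.29-fold (adjusted p = 0.149).

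Other named rises outside the lists ran from 1.30-fold to 1.51-fold. Anxa1, an anti-inflammatory annexin, rose 1.51-fold (adjusted p = 0.0275), Epn3, an endocytic adaptor, 1.45-fold, Nmb, the peptide neuromedin B, 1.40-fold, Lyz2, lysozyme of myeloid cells, 1.39-fold, Plekhb1, a pleckstrin-domain protein, 1.33-fold, Plac9a and Plac9b 1.32-fold and 1.30-fold, Cnnm4, a magnesium transporter, 1.31-fold and Plk3, a stress-responsive polo-like kinase, 1.31-fold. With array spread as a covariate none of these 9 genes passed (adjusted p = 0.154 for Anxa1 to 0.248 for Plac9a). Plac9a and Plac9b are close copies whose probes may share signal. The microglia markers as a list had 9 of 13 means higher, a median of 0.052 and 0 calls by limma, with Trem2 the nearest at 0.863-fold (adjusted p = 0.367).

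Lower genes were mostly dim, and 9 of the 24 lay at or above the median signal. Rbm3, a cold-inducible RNA-binding protein, was the brightest of the named ones, with lowest, median and highest signals of 11.34, 11.79 and 12.18 in Ts66Yah and 11.67, 12.00 and 12.18 in EupTs66Yah. Of the Ts66Yah embryos 6 lay below the euploid range, and the gene was lower in all 6 litters. It fell by 0.19 on the log2 scale (SE 0.051, 0.875-fold, adjusted p = 0.082). With all 48 arrays at full weight the direction turned (log2 0.16, adjusted p = 0.828), and with array weights it did not. Spast, a microtubule-severing protein, fell to 0.885-fold (adjusted p = 0.0887), Zfp960, a zinc finger gene, to 0.800-fold and Sfi1, of the centriole, to 0.821-fold. Epha1, an ephrin receptor, fell to 0.793-fold, Vmn2r29, a pheromone receptor gene, to 0.806-fold and L1td1, an RNA-binding protein of stem cells, to 0.807-fold. At euploid means of 2.31 to 4.62 lay the olfactory receptor genes Olfr1465, Olfr262 and Olfr733, the rhomboid protease gene Rhbdl2, the orphan receptor gene Gpr141, the epithelial factor gene Elf3 and Gm11238, which were called lower at 0.643-fold to 0.776-fold. Spdye4a was called lower at 0.788-fold (euploid mean 5.59). Of the genes of this paragraph Vmn2r29 alone was called with array spread as a covariate, and Rhbdl2, Gpr141 and Olfr1465 with all 48 arrays.

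Among the remaining pathways, 1 called member was found in each of 3 lists. Over all probe sets outside both parts 0.34% were called higher and 50.8% had a higher mean. Hedgehog pathway genes had 14 of 14 means higher, a median log2 difference of 0.098 (0.055 with each array centred) and 1 call, the growth factor gene Fgf15. Its lowest, median and highest signals were 5.56, 6.44 and 7.24 in Ts66Yah and 5.39, 6.10 and 6.62 in EupTs66Yah. The groups overlapped, with 6 Ts66Yah embryos above the euploid range, and Fgf15 rose 1.34-fold (adjusted p = 0.0504), but did not pass with array spread as a covariate (adjusted p = 0.168). Of 41 cell cycle genes 25 had a higher mean, the median was 0.040, and Cdkn1a, the cell cycle inhibitor p21, was called at 1.18-fold (adjusted p = 0.0907), but not with arrays centred (adjusted p = 0.167) or with their spread as a covariate (adjusted p = 0.177). Of 51 cytosolic ribosomal protein genes 31 had a higher mean, the median was 0.015, and Rps15 was called at 1.11-fold (adjusted p = 0.0648), but not with arrays centred (adjusted p = 0.264).

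No member was called by limma in the other lists, named here with the count of higher means and the count at an unadjusted p under 0.05. Over all 22044 probe sets outside the Mmu16 and Mmu17 parts, 11.4% had such a p and 50.8% a higher mean, and 61.4% of those at or above the median signal had a higher mean. Of 17 Notch genes 13 were higher and 5 reached it, with Hey2, a Notch target, nearest at 1.22-fold (adjusted p = 0.104). Of 24 Wnt genes 17 were higher and 2 reached it, with Dkk3 at 1.15-fold. Of 22 glycolysis and hypoxia genes 21 were higher and 8 reached it, with the glucose transporter gene Slc2a1 at 1.17-fold (adjusted p = 0.134). Of 69 nuclear genes of oxidative phosphorylation 52 were higher and 8 reached it, with Atp5d at 1.14-fold. Of 27 synaptic genes 22 were higher and 8 reached it, with the scaffold gene Homer1 at 0.907-fold (adjusted p = 0.155). Of 22 probe sets of immediate early genes 14 were higher and 3 reached it. The nearest was a probe set of Egr3 at 1.27-fold (adjusted p = 0.196), while the other probe sets of Egr3 were at 0.971-fold and 0.927-fold. Of 20 probe sets of protein and amino acid stress genes 14 were higher and 1 reached it, with Shmt2 at 1.13-fold. In the protocadherin beta cluster 9 of 20 were higher and 1 reached it, with Pcdhb2 at 1.28-fold.

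Neuronal and other cell type lists held no calls by limma either. Higher means numbered 8 of 17 for cortical excitatory neurons, 10 of 16 for GABAergic interneurons, 11 of 13 for striatal neurons, 6 of 9 for intermediate progenitors, 8 of 12 for radial glia, 13 of 14 for astrocytes, 7 of 10 for olfactory bulb and neuroblasts, 7 of 13 for diencephalon, 13 of 16 for midbrain and hindbrain and 1 of 6 for erythroid cells. Counts at an unadjusted p under 0.05 ran from 0 to 3 in these lists. The nearest members were Cux1 at 0.935-fold, Sst at 1.12-fold, Ebf1 at 1.10-fold, Elavl4 at 1.09-fold, Vim at 1.15-fold (adjusted p = 0.122), Aldoc at 1.17-fold, Cdhr1 at 1.29-fold, Tal1 at 1.16-fold, Pax5 at 1.32-fold and Epb42 at 0.868-fold. The midbrain and hindbrain list, which a dissection of forebrain should hold little of, had a median log2 difference of 0.17, and its mean level ran from 4.75 to 6.57 in Ts66Yah and from 5.41 to 6.44 in EupTs66Yah. Its part in other differences was not tested. With each array centred on its median, the list medians of intermediate progenitors, choroid plexus, diencephalon, calcineurin signalling and cell cycle turned from above to below 0. Those of oxidative phosphorylation, ribosomal proteins, protein stress and the human chromosome 21 orthologues before the triplicated part did so too. With array spread as a covariate the medians of radial glia, GABAergic interneurons and immediate early genes also turned below 0 (-0.024, -0.0080 and -0.023). The counts of higher means in all these lists therefore give no direction.

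The unnamed probe sets included 16 of the 99 calls. The one of smallest p, at 1.41-fold (adjusted p = 3.59e-06), and another at 1.51-fold carry identifiers of Mmu16, so the 99 may include transcripts of the triplicated part that have no symbol. A further 3, at 0.648-fold to 0.716-fold, carry identifiers of the Y chromosome. They were dim, at euploid means of 3.32 to 4.18, and the labelled sexes were not balanced within litters. In limma with array spread as a covariate none of them passed (adjusted p = 0.201 to 0.254).

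Orthologues of human chromosome 21 genes that Ts66Yah does not triplicate stayed without calls by limma. On Mmu16 before the triplicated part 6 of 10 had a higher mean, with Chodl, a lectin-like membrane protein, nearest at 1.30-fold (adjusted p = 0.134), and 3 of 10 had an unadjusted p under 0.05. On Mmu17 and Mmu10 36 of 51 had a higher mean and 5 an unadjusted p under 0.05, with the RNA-binding protein gene Pcbp3 nearest at 1.18-fold (adjusted p = 0.126). The 20 coding genes just before the Mmu16 part had a median fold of 1.01 and those just after the Mmu17 part 1.00, with 0 called in either.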

How the data were processed

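Forebrain RNA of single embryos was hybridized to Clariom S arrays, 1 array per embryo. The authors deposited log2 signals per probe set, made with RMA (version not stated) per the submitters' processing notes; RMA corrects background, scales arrays to each other and can compress large differences. Array number and signal over background limit the precision. Each probe set was fitted with limma 3.58.1 in R 4.3.3 (lmFit and eBayes, two-sided), with genotype and the litter as terms, on 24 Ts66Yah and 23 EupTs66Yah arrays. Adjustment was by Benjamini-Hochberg over all 22206 probe sets, and an adjusted p under 0.1 was called, the 10% false discovery rate of the series. Tables and figures were made with Python 3.11.15, pandas 2.3.3 and matplotlib 3.10.9, and the fit was tested on simulated data. Litters come from the dam labels. For each litter, deviations from the group means were averaged over its Ts66Yah and over its euploid embryos. Across probe sets at or above the median signal, the correlation between these averages ran from -0.043 to 0.24. The members and gene lists were chosen with earlier results of these data known. Named genes were the role groups and lower genes of the Mmu16 part, a fixed set of Mmu17 genes, up to 15 called genes in each direction of largest change and 10 of smallest p outside, the called members or the nearest member of each list, and genes that differed between models or litters. Probe sets were named by the array annotation, and the gene order is that of GRCm38.p6; the build of the array design was not given in the sources used here. Alternatives changed the arrays used, their weights, the litter term, sex, the test, the threshold, the filter on dim probe sets, scaling, array spread and the prior. Those without the narrow arrays, without the arrays of mismatched sex, and the litter and other-level exclusions for the model and litter tests were chosen after seeing the data.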

Additional observations from a re-analysis of the deposited data

Results flagged for a closer look

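The effect in Ts66Yah differed from that in Ts65Dn, by limma on the difference itself, for these named genes. On the log2 scale the Mmu17 genes differed by -0.61 (Pde10a), -0.56 (Gtf2h5), -0.56 (Tiam2), -0.49 (Scaf8), -0.46 (Mpc1), -0.45 (Ezr), -0.44 (Tulp4) and -0.39 (Dynlt1b), each lower in Ts66Yah, which lacks the extra Mmu17 part. Outside both parts Hapln4, a dim gene with a euploid mean of 3.945, differed by 0.67. Map3k11, a kinase of stress signalling, differed by 0.71 (adjusted p = 0.0833), at 1.21-fold in Ts66Yah and 0.738-fold in Ts65Dn. Speer4f1, a gene of a testis family with close copies, differed by -0.74 (adjusted p = 0.0232), at 0.862-fold and 1.44-fold.

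The genotype difference varied among the 6 litters for Rnf133 (adjusted p = 0.0176) and Chrnb3 (adjusted p = 0.0665) by limma. For Chrnb3 the 2 euploid embryos of WT13, at 6.45 and 5.45, stood above the 6 Ts66Yah embryos of that litter.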

How the results depend on the processing

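Of 93 called named genes, 54 with array spread as a covariate, 65 without the 5 narrow arrays, 48 without WT12, 49 without WT18, 56 without WT15 and 28 with all 48 arrays kept their call, and Rbm3 reversed with all 48 (log2 0.16). With all 48 under limma array weights 88 of the 93 kept their call and 0 reversed. The cause of the losses was not tested. With all 48 arrays the calls were 22 Mmu16 genes, 5 higher and 4 lower outside, 2 Mmu17 and 0 outside genes for the model difference and 0 by litter. Array weights with all 48 gave 58 Mmu16 genes, and 72 higher and 36 lower outside. Without the replicate block, calls were 59 for Mmu16, 109 higher and 39 lower outside, and 11 outside for the model difference, and with litter as a random replicate block 39 lower. Littermates of opposite genotype did not deviate together in every litter, though they share a dam. Calls higher and lower outside were 139 and 54 without the 3 arrays at the other level, 26 and 4 at an adjusted p under 0.05, 221 and 111 at an unadjusted p under 0.01 with a ratio limit, 32 and 87 with arrays centred, 134 and 40 with all 4 groups in 1 fit, and 280 and 133 without the arrays of mismatched sex. Higher calls were 173 among probe sets at or above the median signal, 40 with quantile normalization, 25 with array spread as a covariate and 27 without the narrow arrays, and lower calls 38 by the unpaired t-test. By litter, calls were 0 at or above the median signal, 1 without the 3 arrays and 1 at an adjusted p under 0.05. Leaving out each litter gave 38 (without WT18) to 58 Mmu16 genes, 14 (without WT12) to 157 (without WT11) higher and 3 (without WT12) to 62 (without WT11) lower outside, and 0 to 2 by litter; outside, leaving out WT13, WT15 or WT18 also moved both counts by over 1.5 times. The Mmu17 count was 0 in every setting run.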
